A study of Homo sapiens with 12 samples.

Results

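The kinesin motor genes were followed by RNA sequencing in the human Ewing sarcoma lines A4573 and TC-71 and in their derivatives resistant to the compound YK-4-279. Members were taken by name, as every symbol made of KIF, a number and an optional letter, together with KIFC1, KIFC2 and KIFC3. The rule found 42 genes among 56609 symbols. Of these, 14 work mainly in cell division, 9 serve mainly as transport motors of neurons, 8 are transport motors of many cell types, and 11 act in cilia, signalling or other roles. The split by role came from textbook knowledge, but the lists were chosen with earlier results of these data known.

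Most Ewing sarcomas, which arise in bone or soft tissue, depend on a fusion of EWSR1 with FLI1. YK-4-279 is a small molecule inhibitor of the fusion protein, EWS-FLI1. The 4 groups were A4573-R, the A4573 derivative given YK-4-279 at a dose labelled 650 uM, A4573 parental in the solvent DMSO, TC-71-R given YK-4-279 at a dose labelled 400 uM, and TC-71 parental in DMSO. Each had 3 libraries. All 4 were grown in the same serum-supplemented RPMI medium. The unit of these doses is in doubt and is printed as labelled. Resistance and the presence of the compound cannot be told apart, since each derivative had the compound and each parent had not. Each line has 1 derivative, and no label ties the libraries to separate cultures, so p-values measure only the spread between libraries.

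Kinesins are motor proteins that turn ATP into movement along microtubules, or into the shortening of microtubule ends. In dividing cells they build the spindle, move chromosomes and lead the cleavage of the cell, and their mRNAs are made mostly in the G2 and M phases. In neurons other kinesins carry vesicles, mitochondria and RNA along axons and dendrites. Ewing sarcoma cells are tumour cells with some neural gene expression, so both classes can be read in the same libraries.

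Values are CPM, counts per 1000000 reads, and groups are given as mean ± SD with n = 3. Named genes held 44.0 to 62.1 M reads per library, where M is 1000000. The filter asked for 1 CPM or more in 3 or more of the 12 libraries, and 14335 genes met it and were tested. Fold changes are log2 differences of CPM + 1 with their SE, and a gene rose or fell where limma's Benjamini-Hochberg adjusted p over all tested genes was below 0.05. A change counted as 2-fold is a log2 difference of at least 1 on this scale. The ratio of mean CPM can be larger. Of 8 genes used as Ewing markers, NKX2-2, NR0B1, FLI1, PRKCB, LIPI and STEAP1 were above 10 CPM in every group, CCK averaged 0.308 CPM in TC-71-R and 0.280 CPM in TC-71 parental, and CD99 was at or near 0 in every library, which was not followed further. The leukocyte markers summed to 0.268 to 1.195 CPM and the epithelial markers to 0.536 to 1.79 CPM per library, with CD3E and KRT5 at 0. Genes used as fibroblast markers were expressed, at a sum of 331 ± 4.07 CPM in A4573-R against 415 ± 8.07 CPM in A4573 parental, and 94.6 ± 0.405 CPM in TC-71-R against 34.7 ± 0.521 CPM in TC-71 parental, and their part in the kinesin values was not tested.

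Of the 42 members, 37 passed the filter. KIF2B had no read in any library, which allows up to 0.0309 to 0.0444 CPM per library at 3 reads. KIF4B, a copy of KIF4A so alike that reads may be split between them, had at most 0.186 CPM. KIF12, KIF19 and KIF26B did not reach the filter either, at no more than 1.0, 0.337 and 0.535 CPM in any library. KIF25 passed only through A4573-R, where its libraries had 1.04, 1.16 and 1.02 CPM, so its calls in the counts that follow are tilted by the filter and support nothing.

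The tested kinesins listed as mitotic rose throughout in TC-71-R and were split in A4573-R. More neuronal kinesins rose than fell in A4573-R, and they were split in TC-71-R. KIF2A was listed with the other roles, unlike KIF2B and KIF2C, and it fell in A4573-R (-0.42) and TC-71-R (-0.18). In TC-71-R all 12 tested mitotic kinesins rose against TC-71 parental, 9 of them by 2-fold or more. In A4573-R 6 of the same 12 rose and 5 fell against A4573 parental, none by 2-fold on the scale of CPM + 1. KIF20B came closest there, at -0.98, and its mean CPM was 2.01-fold lower. Among the 9 neuronal kinesins 6 rose and 1 fell in A4573-R, while 4 rose and 5 fell in TC-71-R, where 72.5% of all tested genes passed in A4573-R and 78.5% in TC-71-R. The 7 of 9 called in A4573-R is near that share. In bulk RNA, fewer cells of a kind or phase and less RNA per cell cannot be told apart.

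Over all 37 tested members, 17 rose, 12 fell and 8 did not pass in A4573-R, where 72.5% of all tested genes passed (38.3% higher and 34.1% lower). In TC-71-R 23 members rose, 11 fell and 3 did not pass, where 78.5% of all tested genes passed (38.8% higher and 39.6% lower). The median change of the members was 0.10 in A4573-R and 0.24 in TC-71-R, beside 0.02 and -0.00 over all tested genes. At 2-fold or more, 3 members rose and 0 fell in A4573-R, where 3.49% of tested genes rose and 2.23% fell that far. In TC-71-R 10 members rose and 3 fell by 2-fold, where 4.52% of tested genes rose and 5.82% fell that far. Passing the test is thus common in these data, and size and direction separate the members more than the count does.

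**Figure D1:**
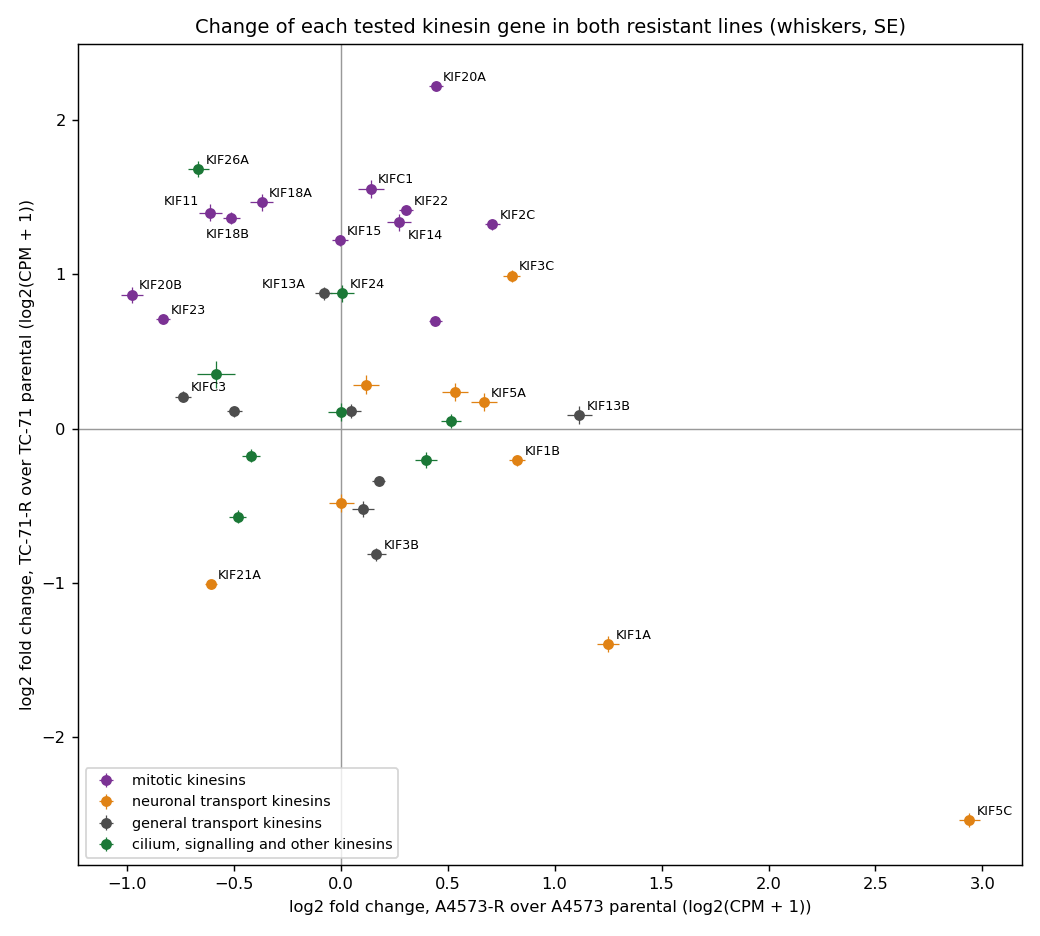
Log2 fold change (CPM + 1) of each of the 37 tested kinesin genes, in A4573-R over A4573 parental on the horizontal axis and in TC-71-R over TC-71 parental on the vertical axis, with SE as whiskers and colour for role. The mitotic kinesins all lie above 0 on the vertical axis and on both sides of 0 on the horizontal one, and KIF5C and KIF1A lie at the lower right.

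KIF20A carries the chromosomal passenger complex to the central spindle, and it had the largest rise of any member in TC-71-R. It had 59.8, 62.1 and 60.4 CPM in TC-71-R, against 12.4, 12.4 and 11.98 CPM in TC-71 parental. In the other line it had 104, 99.5 and 104 CPM in A4573-R, against 75.02, 75.8 and 74.8 CPM in A4573 parental. The derivative was above its parent in every library of both lines. The log2 change was 2.22 ± 0.03 (adjusted p = 7.7e-17) in TC-71-R, a 4.95-fold higher mean, and 0.44 ± 0.03 (adjusted p = 7.2e-09) in A4573-R. KIF20A shares exon positions with BRD8 and CDC23 on the other strand. In TC-71-R BRD8 had a mean of 101 ± 7.21 CPM against 71.4 ± 1.15 CPM in TC-71 parental, and CDC23 had 51.1 ± 3.07 against 77.7 ± 2.0 CPM. Since the sources used here do not say whether the counting used strand, reads of such partners cannot be told apart.

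KIF11, the motor that pushes the spindle poles apart, moved in opposite directions. TC-71-R had 63.1, 59.7 and 67.5 CPM, against 25.5, 22.3 and 22.5 CPM in TC-71 parental, while A4573-R had 75.1, 69.6 and 71.9 CPM, against 107, 111 and 114 CPM in A4573 parental. In TC-71-R every library was above its parent and in A4573-R every library was below. The changes were 1.40 ± 0.05 (adjusted p = 2.4e-12) and -0.61 ± 0.05 (adjusted p = 6.2e-08). Their difference, 2.01 ± 0.08, passed with adjusted p = 3.3e-12.

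KIF23 joins RACGAP1 to form centralspindlin, which marks where the cell will divide. It had 28.2, 27.9 and 29.5 CPM in TC-71-R, against 17.3, 16.8 and 17 CPM in TC-71 parental. A4573-R had 57.5, 55.8 and 55.6 CPM, against 98.5, 102 and 102 CPM in A4573 parental. As for KIF11, the derivative was above its parent in TC-71 and below it in A4573, without overlap. The change was 0.71 ± 0.03 in TC-71-R (adjusted p = 2.8e-11) and -0.83 ± 0.03 in A4573-R (adjusted p = 8.9e-12). Its partner RACGAP1 rose in both lines, by 0.29 in A4573-R and 0.87 in TC-71-R. The CPM ratio of KIF23 to RACGAP1 was 0.381 ± 0.00418 in A4573-R, against 0.836 ± 0.0187 in A4573 parental. It was 0.436 ± 0.00916 in TC-71-R, against 0.482 ± 0.00436 in TC-71 parental.

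KIF20B, a motor of the midbody that acts late in cytokinesis, had the lowest change of any member in A4573-R. It had 25.9, 23.8 and 23.5 CPM there, against 46.96, 48.9 and 51.03 CPM in A4573 parental, and 26.8, 26.1 and 28.4 CPM in TC-71-R, against 15.3, 13.97 and 13.98 CPM in TC-71 parental. The groups did not overlap in either line, at -0.98 ± 0.05 in A4573-R (adjusted p = 1.3e-10) and 0.87 ± 0.05 in TC-71-R (adjusted p = 2.8e-10). KIF20A and KIF20B therefore moved apart in A4573-R. Their CPM ratio was 4.21 ± 0.205 in A4573-R, against 1.54 ± 0.0662 in A4573 parental. In TC-71-R it was 2.24 ± 0.125, against 0.852 ± 0.0387 in TC-71 parental.

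KIF18B, which limits the length of astral microtubules, had 62.01, 64.2 and 63.4 CPM in A4573-R, against 90.6, 90.6 and 90.5 CPM in A4573 parental. It had 20.1, 20.9 and 20.6 CPM in TC-71-R, against 7.76, 7.44 and 6.90 CPM in TC-71 parental. It fell in A4573-R (-0.51 ± 0.04, adjusted p = 1.2e-08) and rose in TC-71-R (1.36 ± 0.04, adjusted p = 9.7e-14). KIF18A, which damps the movement of aligned chromosomes, did the same, at -0.37 in A4573-R and 1.47 in TC-71-R. KIF18A shares exon positions with METTL15 on the other strand, which fell in both lines (-0.54 in A4573-R and -0.43 in TC-71-R).

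KIFC1 gathers spindle poles and moves toward microtubule minus ends. It had 23.1, 24.7 and 24.5 CPM in TC-71-R, against 7.67, 7.49 and 7.50 CPM in TC-71 parental, a change of 1.55 ± 0.06 (adjusted p = 2.7e-12). In the A4573 pair it had 34.6, 28.1 and 33.5 CPM in A4573-R, against 28.6, 29.4 and 28.7 CPM in A4573 parental. Those libraries overlap, and the change of 0.14 ± 0.06 passed with adjusted p = 0.048, a call that 14 of 23 alternative settings lost.

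KIF14, which acts with citron kinase in cytokinesis, had 31.6, 30.1 and 34.3 CPM in TC-71-R, against 12.5, 12.4 and 11.2 CPM in TC-71 parental. It had 119.5, 107 and 105 CPM in A4573-R, against 89.3, 91.7 and 93.3 CPM in A4573 parental. It rose in both, by 1.34 in TC-71-R and 0.27 in A4573-R. KIF2C, which takes apart faulty attachments of microtubules to kinetochores, also rose in both, by 1.32 in TC-71-R and 0.71 in A4573-R. So did the chromosome-bound motors KIF4A (0.70 in TC-71-R and 0.44 in A4573-R) and KIF22 (1.42 in TC-71-R and 0.30 in A4573-R). KIF4A shares exon positions with PDZD11 on the other strand, which rose in A4573-R (0.26) and fell in TC-71-R (-0.47). KIF15, a second spindle-pole motor beside KIF11, rose by 1.22 in TC-71-R, while its change in A4573-R was -0.01 with a 95% interval of -0.08 to 0.07 and did not pass.

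**Figure D2:**
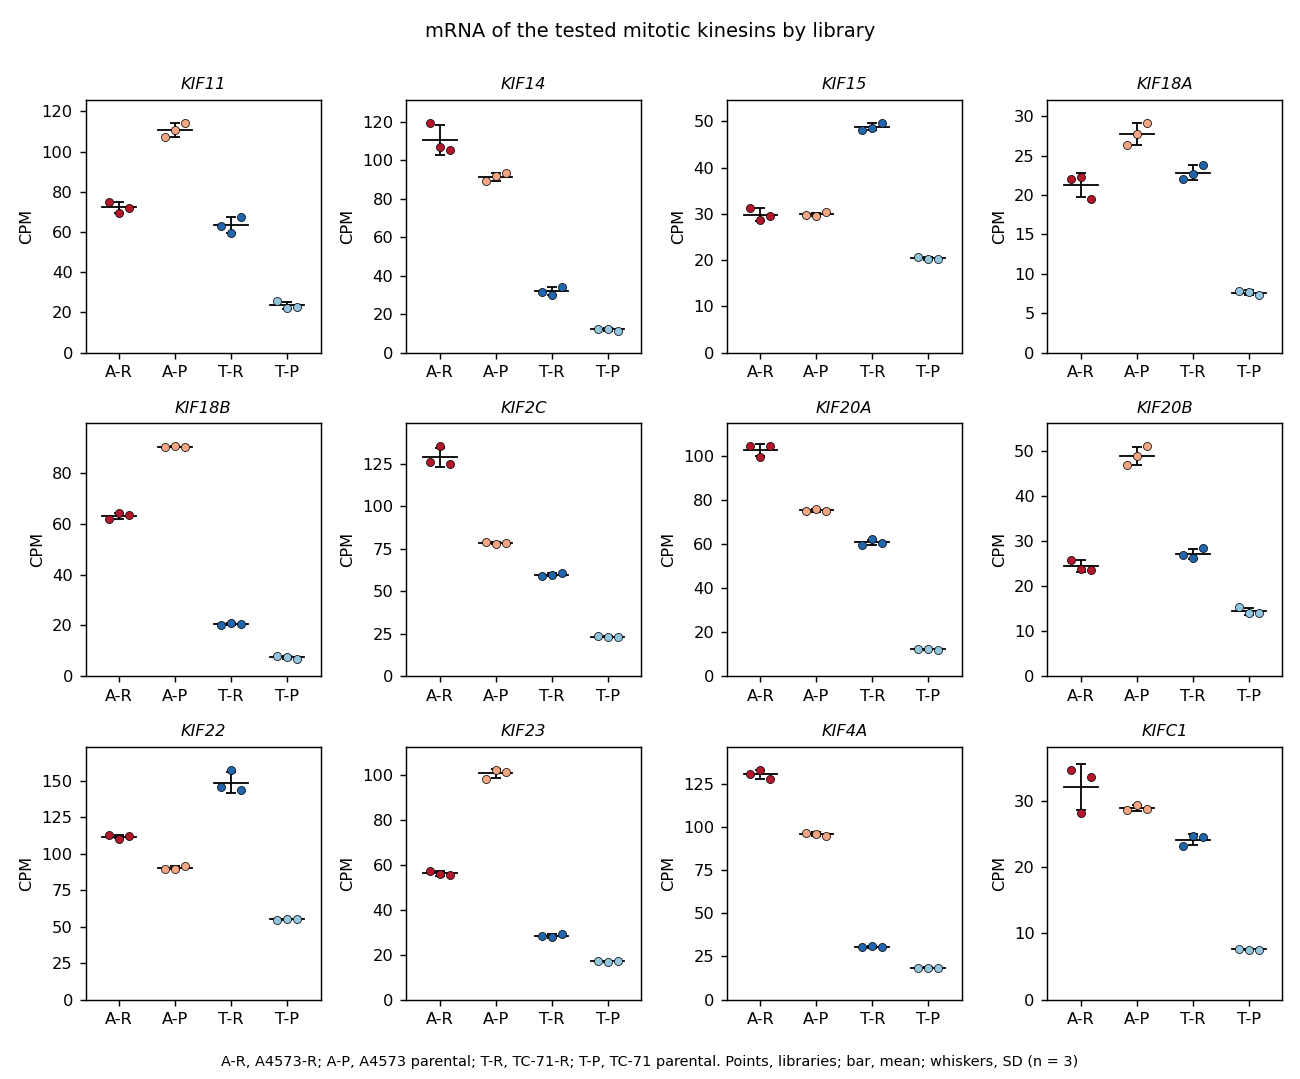
CPM of the tested mitotic kinesins in each library, with a panel for each gene, points for libraries, a bar for the mean and whiskers for the SD of 3 libraries. TC-71-R lies above TC-71 parental in every panel, whereas A4573-R lies below A4573 parental for KIF11, KIF18A, KIF18B, KIF20B and KIF23.

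The median change of the 12 mitotic kinesins was 1.35 in TC-71-R and 0.07 in A4573-R. The test of the difference between the lines was passed by all 12, each higher in TC-71-R, where 78.1% of all tested genes passed (37.9% higher and 40.2% lower). The summed CPM of all 14 mitotic members, KIF2B and KIF4B included, was 567 ± 8.30 in TC-71-R, against 219 ± 4.22 in TC-71 parental. It was 883 ± 16.1 in A4573-R, against 869 ± 10.5 in A4573 parental, where the lowest library of A4573-R was 871 CPM and the highest of A4573 parental was 878 CPM. The sum in A4573 thus hid changes of single genes in both directions.

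General markers of proliferation rose with the mitotic kinesins in TC-71-R, and in A4573-R they rose or did not pass where the kinesins were split. All 14 of them, MKI67, TOP2A and the cyclins CCNA2, CCNB1 and CCNB2 included, rose in TC-71-R, with a median of 1.55 and a summed level of 1110.1 ± 18.8 CPM against 378 ± 6.62 CPM in TC-71 parental. In A4573-R 10 rose, 0 fell and 4 did not pass, with a median of 0.30 and a sum of 2777 ± 99.4 CPM against 2359 ± 16.7 CPM in A4573 parental. In TC-71 parental and TC-71-R this sum was below that of either A4573 group. Among all tested genes, 78.5% passed in TC-71-R (38.8% higher) and 72.5% in A4573-R (38.3% higher). The part of proliferation in the kinesin values was not tested.

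Genes of proteins that work with these motors were counted in the same way. Of 18 mitotic partners, 17 rose and 1 fell in TC-71-R (median 1.21), and 10 rose, 5 fell and 3 did not pass in A4573-R (median 0.17). Of all tested genes, 78.5% passed in TC-71-R (38.8% higher) and 72.5% in A4573-R (38.3% higher). HMMR, a spindle protein, rose by 2.07 in TC-71-R, and the kinase AURKB of the chromosomal passenger complex rose by 1.74. The partner that fell there was MAPRE1, a protein of growing microtubule ends (-0.69, adjusted p = 9.4e-11). Within the passenger complex that KIF20A carries, A4573-R had higher CDCA8 (0.60) and BIRC5 (0.49) but lower AURKB (-0.25) and INCENP (-0.18). CIT, the kinase that works with KIF14, rose in both lines, by 0.62 in A4573-R and 0.59 in TC-71-R. CENPE, a kinetochore kinesin outside the naming rule, had 36.3 ± 0.878 CPM in TC-71-R against 18.7 ± 0.732 CPM in TC-71 parental, while A4573-R had 102 ± 7.61 CPM against 82.01 ± 0.335 CPM in A4573 parental. It rose by 0.92 and 0.31.

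Promoters were then read for the letters that regulators of G2 and M phase genes are known to bind. The cell cycle homology region (CHR) is bound by the LIN54 subunit of the MuvB complex, and the CCAAT box by NF-Y. The search used TTTGAA and TTCGAA for the CHR and CCAAT for the box, on both strands, in windows of 300 bases around the start of each gene (250 before and 50 after), from RefSeq on GRCh38.p14. No CHR match shares a base with a CCAAT match in the 43 windows of the members, and TTCGAA reads the same on both strands. Of the 42 members 34 matched a window, some with several. KIFC2, KIF26B, KIFC3, KIF13B, KIF21B, KIF27, KIF5A and KIF19 did not. The 4 sequences that follow are those of 3 mitotic kinesins and of KIF5C, the member whose change differed most between the lines. Each is on the plus strand, 280 bases long (250 before the start and 30 from it on), with the CHR and CCAAT letters in capitals as read on the printed strand, so that ATTGG and TTCAAA are matches on the other strand. KIF20A is at chr5:138178862-138179141, KIF11 at chr10:92592880-92593159, KIF23 at chr15:69414099-69414378 and KIF5C at chr2:148874977-148875256.
KIF20A: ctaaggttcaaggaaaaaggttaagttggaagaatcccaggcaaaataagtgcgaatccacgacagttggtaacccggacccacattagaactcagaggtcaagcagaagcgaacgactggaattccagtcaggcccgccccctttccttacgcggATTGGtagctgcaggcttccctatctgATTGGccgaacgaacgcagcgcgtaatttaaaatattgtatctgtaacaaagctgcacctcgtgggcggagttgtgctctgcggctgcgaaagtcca
KIF11: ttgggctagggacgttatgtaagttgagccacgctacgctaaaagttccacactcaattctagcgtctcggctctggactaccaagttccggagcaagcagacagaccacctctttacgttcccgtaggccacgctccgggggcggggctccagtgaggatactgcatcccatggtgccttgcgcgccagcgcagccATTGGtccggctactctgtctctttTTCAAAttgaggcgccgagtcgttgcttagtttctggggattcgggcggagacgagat
KIF23: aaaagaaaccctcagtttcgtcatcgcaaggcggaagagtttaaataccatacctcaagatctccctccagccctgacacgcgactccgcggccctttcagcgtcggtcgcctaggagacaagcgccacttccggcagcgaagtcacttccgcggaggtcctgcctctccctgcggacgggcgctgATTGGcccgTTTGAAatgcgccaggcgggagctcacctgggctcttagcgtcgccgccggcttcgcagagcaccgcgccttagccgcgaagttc
KIF5C: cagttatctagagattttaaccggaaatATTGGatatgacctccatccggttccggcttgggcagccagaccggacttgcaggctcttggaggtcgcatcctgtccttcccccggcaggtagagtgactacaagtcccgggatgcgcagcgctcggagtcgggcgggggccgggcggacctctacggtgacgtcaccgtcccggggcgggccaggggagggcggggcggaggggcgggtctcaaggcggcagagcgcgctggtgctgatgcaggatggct

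KIF11 and KIF23 hold a CCAAT box just before a CHR, with the CHR beginning at -28 in KIF11 and at -55 in KIF23 from the start. KIF20A holds a pair of CCAAT boxes, beginning at -94 and -67, and none of the CHR letters in this window. KIF5C holds a lone CCAAT match at -222. Across the class, 12 of 15 windows of mitotic kinesins held a CHR, in 11 of 14 genes, beside 16.4% of all 35116 windows. CCAAT was in 11 of 15 mitotic windows, beside 34.6% of all windows, and both elements were in 10 of 15, beside 6.38% of all. Of the 11 windows of neuronal kinesins, from 6 of the 9 genes, 0 held a CHR and 3 held CCAAT, beside 16.4% and 34.6% of all windows. Outside the mitotic class, KIF5B and KIF24 held both elements. Both elements were in all 5 mitotic kinesins that fell in A4573-R and in 4 of the 6 that rose there.

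**Figure D3:**
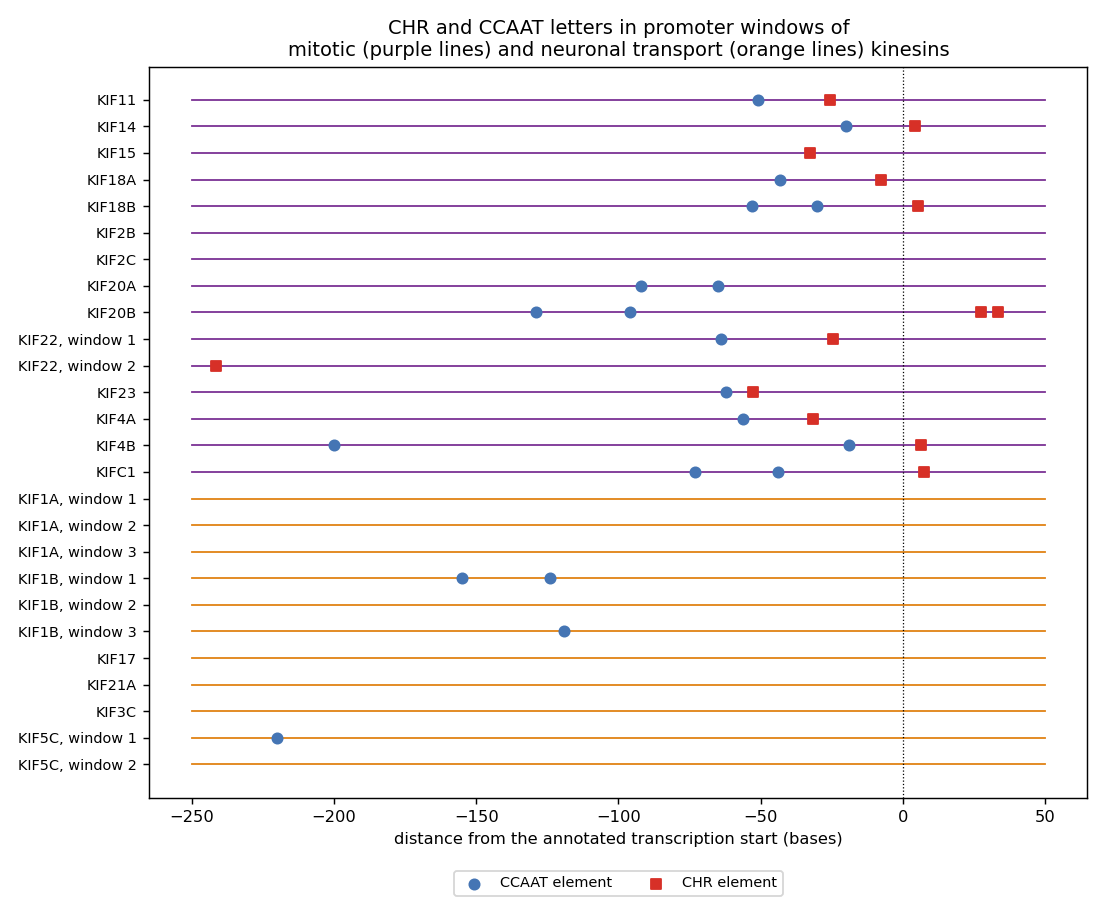
Position of CHR and CCAAT letters in the promoter windows of mitotic and neuronal kinesins, with distance from the gene start in bases on the horizontal axis. In most mitotic kinesins a CCAAT mark lies before a CHR mark near the start, and no neuronal kinesin window has a CHR mark.

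The genes of regulators of the cell cycle were called in both directions in both lines. Of 13 cell cycle transcription regulators, 5 rose and 6 fell in TC-71-R (median -0.05), and 6 rose and 5 fell in A4573-R (median 0.09). Of all tested genes, 38.8% rose and 39.6% fell in TC-71-R, and 38.3% rose and 34.1% fell in A4573-R. Calls in both directions were thus common over all genes. FOXM1 and MYBL2, activators of G2 and M phase genes, rose in TC-71-R by 0.59 and 0.72. In A4573-R MYBL2 rose by 0.22, and FOXM1 had 221 ± 6.33 CPM against 209 ± 1.46 CPM in A4573 parental (0.08, not passed). NFYA, a subunit of NF-Y, rose in both lines, by 0.75 in A4573-R and 0.65 in TC-71-R. LIN54 had 18.6 ± 0.525 CPM in TC-71-R against 20.99 ± 0.373 CPM in TC-71 parental, a fall of small size (-0.17, adjusted p = 0.0028). The largest falls of the list were those of TFDP1, LIN37 and E2F4 in TC-71-R (down to -0.53). In A4573-R they were those of E2F4, TFDP1 and LIN9 (down to -0.58).

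KIF5C, a heavy chain of the conventional kinesin enriched in neurons, changed more than any other member, and in opposite directions. The gene spans 148875250 to 149026759 on chromosome 2 of GRCh38 in GENCODE and shares no exon position with another gene. A4573-R had 21.1, 19.2 and 20.3 CPM, against 1.81, 1.73 and 1.75 CPM in A4573 parental. TC-71-R had 3.05, 3.02 and 2.85 CPM, against 22.4, 21.6 and 22.1 CPM in TC-71 parental. The high groups were thus A4573-R and TC-71 parental, between 19.2 and 22.4 CPM, and the low ones A4573 parental and TC-71-R. The mean was 11.5-fold higher in A4573-R than in its parent (2.94 ± 0.05, adjusted p = 5.2e-16). TC-71 parental was 7.42-fold higher than TC-71-R (-2.54 ± 0.05 for the derivative, adjusted p = 1.2e-15). The difference between the lines was -5.48 ± 0.07 (adjusted p = 3.1e-17).

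KIF5B is the form of the same motor found in all tissues. It had 186 ± 4.01 CPM in A4573-R against 165 ± 2.78 CPM in A4573 parental, and 167 ± 2.90 CPM in TC-71-R against 211 ± 2.95 CPM in TC-71 parental. Its changes, 0.18 and -0.34, were far smaller than those of KIF5C. The CPM ratio of KIF5C to KIF5B was 0.108 ± 0.00450 in A4573-R, against 0.0107 ± 0.000390 in A4573 parental. It was 0.0178 ± 0.000767 in TC-71-R, against 0.104 ± 0.000775 in TC-71 parental. KIF5A, the other neuronal heavy chain and a gene mutated in hereditary spastic paraplegia, did not follow KIF5C. It had 16.98, 16.99 and 16.2 CPM in A4573-R, against 10.9, 9.71 and 9.91 CPM in A4573 parental. It had 16.1, 18.4 and 15.5 CPM in TC-71-R, against 14.97, 13.98 and 15.02 CPM in TC-71 parental. The derivative was above its parent without overlap in both lines, at 0.67 ± 0.06 in A4573-R (adjusted p = 8.1e-08) and 0.17 ± 0.06 in TC-71-R (adjusted p = 0.016). The TC-71-R call was lost without replicate 2 of TC-71-R (log2 change 0.10) and without replicate 2 of TC-71 parental (0.14).

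KIF1A carries precursors of synaptic vesicles down the axon. A4573-R had 87.02, 85.99 and 81.2 CPM, against 35.03, 34.5 and 35.6 CPM in A4573 parental. TC-71-R had 1.17, 0.918 and 1.19 CPM, against 4.48, 4.31 and 4.69 CPM in TC-71 parental. The gene was higher in every A4573-R library and lower in every TC-71-R library than in the parent, and both TC-71 groups were below both A4573 groups. The changes were 1.25 ± 0.05 (adjusted p = 1.6e-11) in A4573-R and -1.40 ± 0.05 (adjusted p = 2.4e-12) in TC-71-R. On the scale of mean CPM the parent was 4.12-fold higher than TC-71-R, since the added 1 CPM draws low values together.

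KIF1B, a relative of KIF1A that moves vesicles and mitochondria, had 188, 173 and 175 CPM in A4573-R, against 99.9, 99.6 and 102 CPM in A4573 parental. It had 77.6, 77.4 and 77.7 CPM in TC-71-R, against 93.01, 87.7 and 87.8 CPM in TC-71 parental. It rose in A4573-R (0.82 ± 0.04, adjusted p = 2.3e-11) and fell in TC-71-R (-0.20 ± 0.04, adjusted p = 0.0001). KIF1A, KIF1B and KIF5C were the 3 of 9 neuronal members with opposite calls, where 26.2% of all tested genes had such calls. In each of the 3 the derivative of A4573 was the one that rose, while 4 of the 9 were called in the same direction in both lines.

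KIF21A, a motor that slows microtubule growth, was the neuronal member that fell in both lines. It had 45.1, 43.6 and 45.04 CPM in A4573-R, against 69.9, 67.98 and 67.5 CPM in A4573 parental. It had 43.3, 43.8 and 44.4 CPM in TC-71-R, against 90.1, 88.1 and 89.3 CPM in TC-71 parental. No libraries overlapped, with changes of -0.61 ± 0.03 and -1.01 ± 0.03. Its relative KIF21B fell in TC-71-R (-0.48) and in A4573-R had 12.2 ± 0.670 CPM against 12.2 ± 0.568 CPM in A4573 parental (95% interval -0.12 to 0.13, not passed).

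KIF3C, a partner of KIF3A in the kinesin of the KIF3 family that is abundant in brain, rose in both lines, by 0.80 in A4573-R and 0.99 in TC-71-R. KIF17, a motor of dendrites and cilia, also rose in both at low level, at 2.52 ± 0.222 CPM in A4573-R against 1.42 ± 0.0842 CPM in A4573 parental and 2.89 ± 0.190 CPM in TC-71-R against 2.30 ± 0.152 CPM in TC-71 parental. KIFC2, a minus-end motor of neurons, had 43.6, 49.6 and 40.98 CPM in TC-71-R, against 38.01, 35.5 and 35.8 CPM in TC-71 parental, and rose by 0.28. It had 7.42, 7.50 and 7.03 CPM in A4573-R, against 7.08, 6.60 and 6.35 CPM in A4573 parental. The A4573 libraries overlapped, with a change of 0.12 that did not pass.

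**Figure D4:**
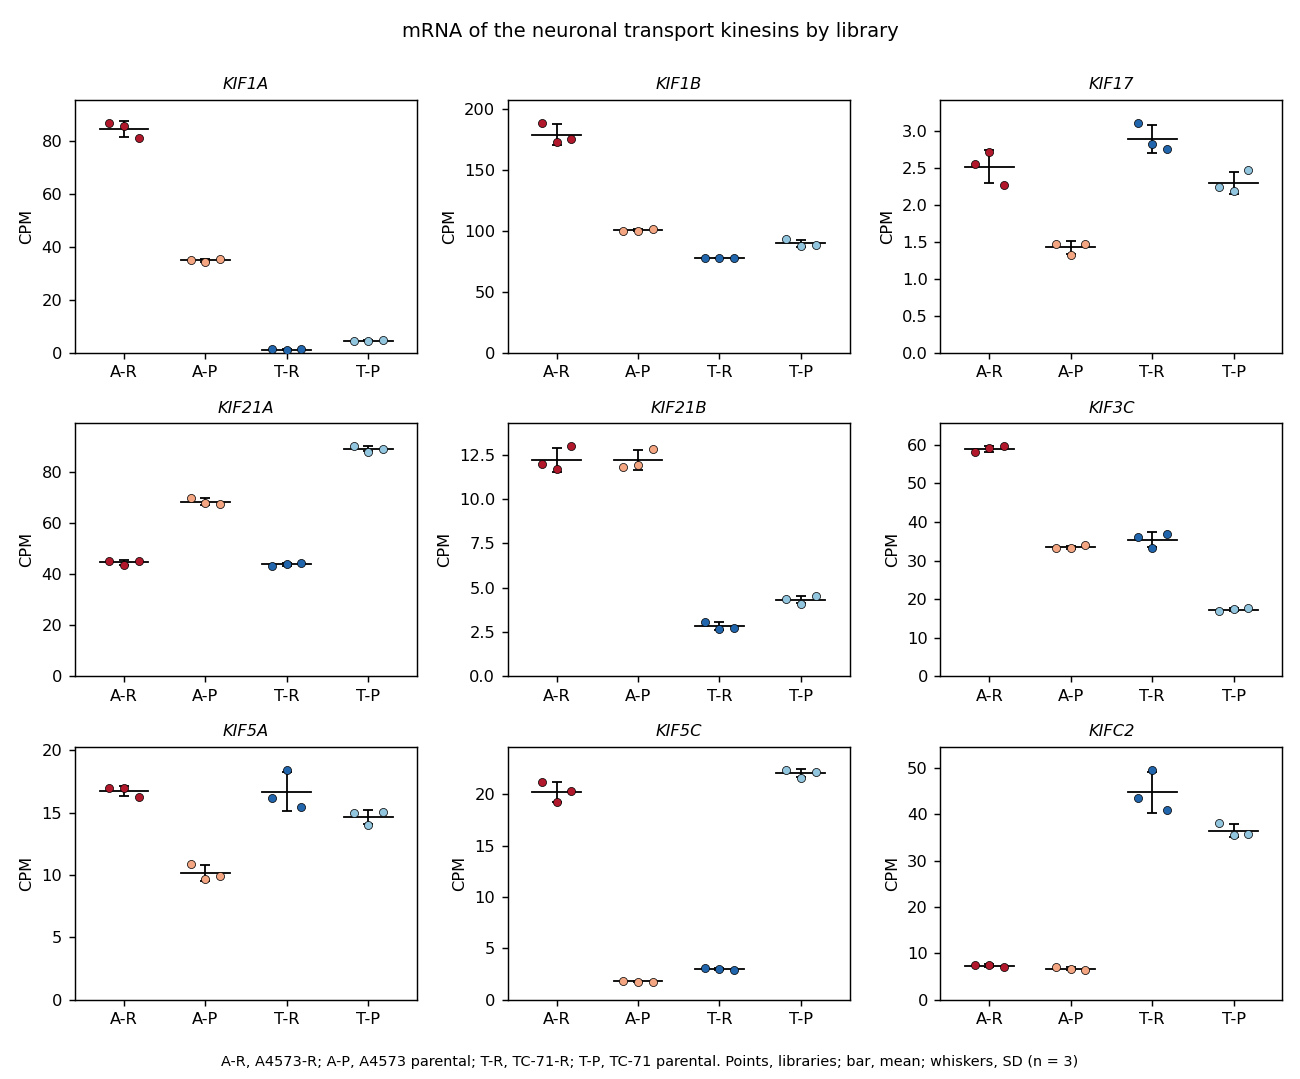
CPM of the 9 neuronal transport kinesins in each library, with a panel for each gene, points for libraries, a bar for the mean and whiskers for the SD of 3 libraries. KIF5C is high in A4573-R and TC-71 parental and low in the other groups, while KIF21A lies lower in both derivatives than in their parents.

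As a class, the 9 neuronal kinesins had a median change of 0.67 in A4573-R and -0.20 in TC-71-R. The test of the difference between lines was passed by 78.1% of all tested genes. It was passed by 8 of the 9, of which 1, KIF3C, was higher and 7 were lower in TC-71-R. Their summed CPM was 426 ± 10.9 in A4573-R, against 269.6 ± 2.64 in A4573 parental, and 228 ± 3.55 in TC-71-R, against 280.2 ± 5.93 in TC-71 parental. The ratio of the mitotic to the neuronal sum was 2.07 ± 0.0173 in A4573-R, against 3.22 ± 0.0541 in A4573 parental. In the other line it was 2.49 ± 0.0513 in TC-71-R, against 0.781 ± 0.0102 in TC-71 parental. The balance of these sums so moved toward the neuronal motors in A4573-R and toward the mitotic ones in TC-71-R, without overlap of libraries. The sums are not per kb, so genes with long exons weigh more. KIF1B (17.7 kb) averaged 179 CPM in A4573-R against 100 CPM in A4573 parental, and KIF1A (16.7 kb) 84.7 against 35.0 CPM. The shift in A4573 thus rests largely on KIF1B and KIF1A, while KIF21A fell and KIF21B and KIFC2 did not pass there. In TC-71 the mitotic sum, at 567 CPM in TC-71-R against 219 CPM in TC-71 parental, changed more than the neuronal sum. KIF21A, which fell in both lines, averaged 43.8 CPM in TC-71-R against 89.2 CPM in TC-71 parental, and KIF5C 2.97 against 22.0 CPM. Of the 9 neuronal kinesins 4 rose in TC-71-R. Mitotic kinesins made up 47.5% of all kinesin CPM in A4573-R against 49.6% in A4573 parental, and 40.7% in TC-71-R against 19.7% in TC-71 parental.

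**Figure D5:**
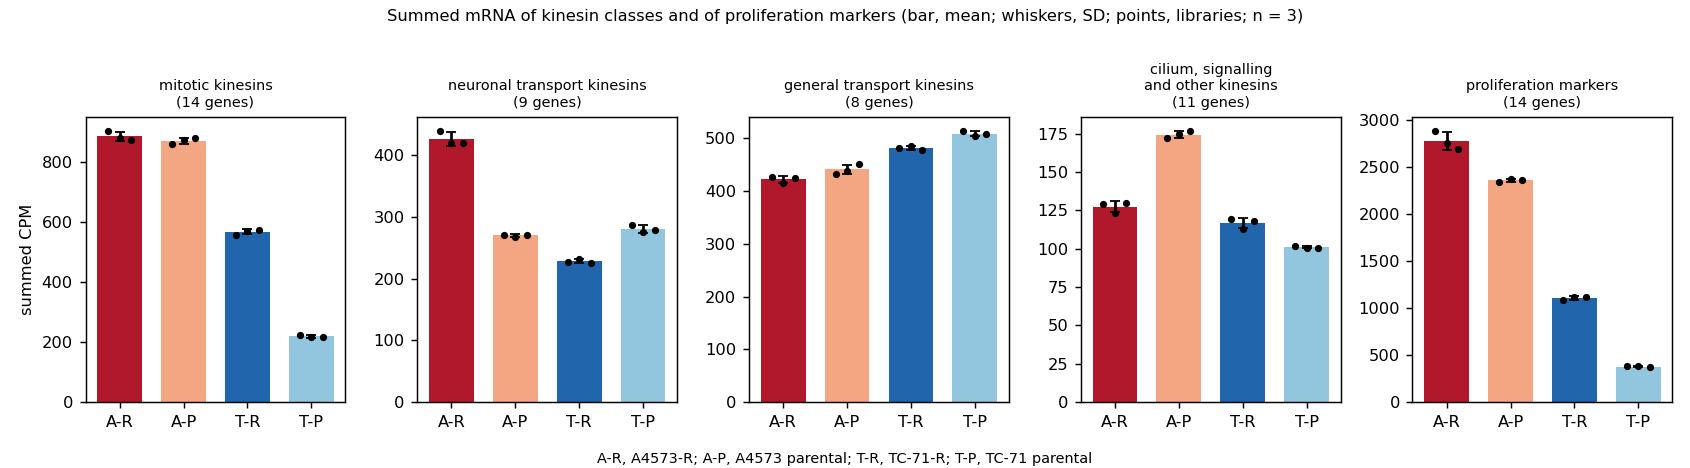
Summed CPM of the kinesin genes of each role by library, and of 14 proliferation markers, with points for libraries, bars for the mean of 3 and whiskers for the SD. The mitotic sum of TC-71-R lies far above that of TC-71 parental, and the neuronal sum of A4573-R lies above that of A4573 parental.

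Transport kinesins of many cell types were called in both directions, with a median of 0.08 in A4573-R (range -0.74 to 1.12) and 0.10 in TC-71-R (range -0.81 to 0.88). Of 8, 3 rose, 2 fell and 3 did not pass in A4573-R, and 4 rose, 3 fell and 1 did not pass in TC-71-R. Under the alternative settings 2 to 5 of them rose in TC-71-R. KIF16B was among the 4 (0.11, adjusted p = 0.027) and lost its call on CPM of named genes (0.05). Of all tested genes, 72.5% passed in A4573-R and 78.5% in TC-71-R. None of the 8 was called in the same direction in both lines, where 31.3% of all tested genes were. KIF13B, a motor that carries membrane proteins and signalling scaffolds, had 10.2, 10.6 and 9.47 CPM in A4573-R, against 4.27, 4.08 and 4.0 CPM in A4573 parental. It had 8.14, 6.98 and 7.91 CPM in TC-71-R, against 7.18, 7.33 and 6.92 CPM in TC-71 parental. It rose in A4573-R (1.12 ± 0.06, adjusted p = 1.6e-10), while the TC-71 libraries overlapped (0.09, not passed).

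KIF13A, which moves recycling endosomes, behaved the other way round. It had 72.4, 73.8 and 69.5 CPM in TC-71-R, against 40.1, 37.9 and 37.9 CPM in TC-71 parental, while A4573-R had 12.5, 13.2 and 11.9 CPM, against 13.3, 13.3 and 13.2 CPM in A4573 parental. It rose in TC-71-R (0.88 ± 0.04, adjusted p = 2.9e-11) and was -0.08 in A4573-R (adjusted p = 0.095), which did not pass. KIFC3, a minus-end motor of cell junctions and the Golgi, had 21.5, 20.99 and 21.7 CPM in A4573-R, against 36.4, 36.1 and 36.6 CPM in A4573 parental. It had 92.2, 99.6 and 89.7 CPM in TC-71-R, against 80.6, 81.4 and 81.2 CPM in TC-71 parental. It fell in A4573-R (-0.74 ± 0.04, adjusted p = 1.1e-10) and rose in TC-71-R (0.21 ± 0.04, adjusted p = 0.0001). The transcript AC092118.1, whose exons overlap those of KIFC3 on the other strand, had a mean of 6.63 ± 0.349 CPM in TC-71-R against 1.43 ± 0.0653 CPM in TC-71 parental. KIF1C, which moves Golgi vesicles and mRNA, fell by 0.50 in A4573-R and rose by 0.11 in TC-71-R, a call lost on CPM of named genes (0.04, adjusted p = 0.22). Its place among the opposite calls rests on that call.

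The subunits of the heterotrimeric kinesin of the KIF3 family did not move together. KIF3A and KIF3B fell in TC-71-R, at -0.52 and -0.81, while their accessory subunit KIFAP3 rose there by 0.90 and in A4573-R by 0.49. In A4573-R KIF3B rose by 0.17 and KIF3A was 0.10, not passed. Over the 21 tested light chains, subunits and cargo adaptors, 13 rose and 5 fell in A4573-R (median 0.20), and 10 rose and 10 fell in TC-71-R (median -0.07). Of all tested genes, 38.3% rose and 34.1% fell in A4573-R, and 38.8% rose and 39.6% fell in TC-71-R. KIF1BP, a binding protein that restrains several kinesins, fell in A4573-R (-1.03, 16.2 ± 1.02 CPM against 33.9 ± 0.695 CPM in A4573 parental) and rose in TC-71-R (0.44). Of the liprins, scaffolds that bind KIF1A, PPFIA4 rose in A4573-R (0.87), and PPFIA3 rose in TC-71-R (1.22) while PPFIA2 fell there (-1.16). TRAK2, which links kinesin to mitochondria, rose in A4573-R (0.70) and fell in TC-71-R (-0.59).

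Among the 11 members with roles in cilia, signalling or elsewhere, 8 were tested. In A4573-R 2 rose, 4 fell and 2 did not pass (median -0.21), and in TC-71-R 3 rose, 3 fell and 2 did not pass (median 0.08). Of all tested genes, 72.5% passed in A4573-R and 78.5% in TC-71-R. KIF26A, a kinesin without motor activity that in mice restrains signalling in developing enteric neurons, had the largest difference of any member toward TC-71-R. It had 41.1, 37.1 and 38.8 CPM in TC-71-R, against 12.1, 11.1 and 11.2 CPM in TC-71 parental. It had 34.7, 31.6 and 35.4 CPM in A4573-R, against 53.8, 53.7 and 55.7 CPM in A4573 parental. It rose in TC-71-R (1.68 ± 0.05, adjusted p = 1.2e-13) and fell in A4573-R (-0.67 ± 0.05, adjusted p = 8.2e-09), without overlap.

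KIF7, the kinesin of the ciliary tip in Hedgehog signalling, fell in both lines, at -0.48 in A4573-R and -0.57 in TC-71-R, and KIF2A, which shortens microtubule ends, at -0.42 and -0.18. KIF7 shares exon positions with TICRR, which had 46.6 ± 3.27 CPM in A4573-R against 78.5 ± 1.27 CPM in A4573 parental, and 25.97 ± 0.623 CPM in TC-71-R against 15.8 ± 0.661 CPM in TC-71 parental. KIF2A shares exon positions with IPO11 on the same strand, which had 26.7 ± 2.28 CPM in A4573-R against 46.04 ± 0.893 CPM in A4573 parental, and 19.7 ± 1.23 CPM in TC-71-R against 20.4 ± 0.645 CPM in TC-71 parental. KIF27, a relative of KIF7, rose in A4573-R (0.40) and fell in TC-71-R (-0.20). KIF24, which acts at the mother centriole and shares exon positions with UBAP1, rose in TC-71-R (0.88) and was 0.01 in A4573-R, not passed. KIF6 had 0.924 ± 0.0281 CPM in A4573-R against 1.89 ± 0.106 CPM in A4573 parental, and 2.53 ± 0.404 CPM in TC-71-R against 1.77 ± 0.367 CPM in TC-71 parental, and it was called lower in the first pair and higher in the second. KIF9 passed in neither line. KIF25 had 1.07 ± 0.0762 CPM in A4573-R against 0.453 ± 0.0512 CPM in A4573 parental, with the antisense transcript KIF25-AS1 at 1.78 ± 0.427 CPM in A4573-R against 0.566 ± 0.0423 CPM in A4573 parental.

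Across both lines, 12 of 37 members were called in the same direction (9 higher and 3 lower), where 31.3% of all tested genes were. Another 15 were called in opposite directions, where 26.2% of all tested genes were. Of these 15, 9 rose in TC-71-R and fell in A4573-R, among them 5 mitotic kinesins, and 6 did the reverse, among them 3 neuronal ones. The test of the difference itself was passed by 33 members, 20 higher and 13 lower in TC-71-R. Of all tested genes 78.1% passed it (37.9% higher and 40.2% lower). By 2-fold or more, 11 members were higher and 4 lower, where 6.72% of all tested genes were higher and 9.79% lower by that much. The libraries of a derivative and its parent did not overlap for 29 members in A4573 (74.6% of all tested genes) and for 36 in TC-71 (81.1%).

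The parental lines also differed in these genes. In TC-71 parental 14 members were higher and 22 lower than in A4573 parental, where 89.9% of all tested genes passed (45.9% higher and 44.1% lower). The median was -0.49, beside 0.02 over all tested genes, and 5 members were higher and 14 lower by 2-fold (16.0% and 14.6% of all). The libraries did not overlap for 35 members, beside 92.5% of all tested genes. All 12 tested mitotic kinesins were lower in TC-71 parental, 10 by 2-fold, with a median of -2.0. KIF18B had the lowest value (-3.45 ± 0.04, adjusted p = 2.7e-19), followed by KIF14 (-2.83 ± 0.06, adjusted p = 1.8e-16). All 18 mitotic partners and all 14 proliferation markers were lower too, and the part of growth rate in this difference was not tested.

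Of the 9 neuronal kinesins, 5 were higher and 4 lower in TC-71 parental (median 0.38), where 45.9% of all tested genes were higher and 44.1% lower. This split is near that of all tested genes. KIF5C (3.06 ± 0.05) and KIFC2 (2.29 ± 0.06) were higher by 2-fold in TC-71 parental, and KIF1A (-2.71 ± 0.05) and KIF21B (-1.31 ± 0.06) lower. Of the general motors, KIF13A (1.47 ± 0.04) and KIFC3 (1.14 ± 0.04) were higher by 2-fold.

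Levels of different genes were compared per kb of exon, with all annotated exons of a gene merged. The transcripts made in these cells can be shorter, so the order between genes depends on the annotation. In A4573-R the highest were KIF2C at 35.3 ± 1.52, KIF5B at 31.7 ± 0.683 and KIF4A at 28.7 ± 0.598 CPM per kb. In A4573 parental KIF5B led at 28 ± 0.473 CPM per kb, followed by KIF11 at 22.8 ± 0.733 and KIF2C at 21.5 ± 0.170, whose libraries lie close to those of KIF4A at 21.1 ± 0.227 and KIF22 at 20.9 ± 0.256. TC-71-R had KIF22 first at 34.5 ± 1.74 CPM per kb, then KIF5B at 28.4 ± 0.494 and KIF2C at 16.4 ± 0.222. TC-71 parental had KIF5B first at 35.98 ± 0.503 CPM per kb, then KIF22 at 12.7 ± 0.0650 and KIF3B at 11.4 ± 0.381. A mitotic kinesin therefore headed the family in each derivative and the ubiquitous transport motor KIF5B in each parent, as a description with no test. Of the neuronal members, KIF1B was the highest per kb in A4573-R at 10.1 ± 0.471, and KIFC2 in TC-71-R at 10.1 ± 0.989 CPM per kb.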

How the data were processed

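RNA from 12 libraries was sequenced with a TruSeq RNA kit in paired reads, per the labels' protocols. Trimmomatic, STAR 2.4, HTSeq, edgeR and the GRCh38 build are named in the submitters' processing notes, with roles and order not given in the sources used here. The deposited signal per gene is CPM, scaled by the authors, and each column holds whole multiples of its smallest step (100% of values within 0.001), which served as read counts in the count tests. Entries with no gene name held 30.6% to 42.0% of reads and were left out of depth and tests, although the deposited scaling counts them.

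Rows that share a symbol were summed. Genes with at least 1 CPM in 3 libraries were taken as log2(CPM + 1) and entered a limma 3.58.1 model (R 4.3.3) with 1 coefficient per group and a variance trend. P-values were adjusted by Benjamini-Hochberg over all 14335 genes. Small fold changes of genes with few CPM understate their ratios. The fit, edgeR 4.0.16 and DESeq2 1.42.0 were tested on simulated data. Exon lengths and positions come from GENCODE on GRCh38, and promoters from RefSeq. The members and lists were chosen with earlier results of these data known. Values in every library are given for KIF11, KIF20A, KIF23, KIF5C, KIF5A and KIF1A and, for each comparison, the 3 highest and 3 lowest called members. From the other lists up to 3 genes per direction and comparison, and CENPE, could be named. Genes with other reasons to be named (a subunit, a regulator that binds the promoter letters, an overlapping gene) were chosen after their values were seen. Intervals and floors cover counting error only where they are said to rest on reads.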

Additional observations from a re-analysis of the deposited data

Results flagged for a closer look

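The change in TC-71-R minus the change in A4573-R passed limma's test of that difference for 33 members. Of all tested genes 78.1% passed it. Positive log2 values mean a higher change in TC-71-R. Among mitotic kinesins the difference was 2.01 for KIF11, 1.88 for KIF18B, 1.84 for both KIF18A and KIF20B, 1.78 for KIF20A, 1.54 for KIF23 and 1.41 for KIFC1. It was 1.23 for KIF15, 1.11 for KIF22, 1.07 for KIF14, 0.61 for KIF2C and 0.26 for KIF4A. The 12 values share 1 sign.

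Of the neuronal kinesins, KIF5C had the lowest difference of all members, -5.48, followed by KIF1A at -2.65 and KIF1B at -1.03. KIF5A was at -0.50, KIF21B at -0.48, KIF21A at -0.40 and KIF17 at -0.30. KIF3C, at 0.19, was the neuronal member with a positive difference that passed.

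Of the general transport kinesins, KIF13A was at 0.96, KIFC3 at 0.94 and KIF1C at 0.61. KIF13B was at -1.03, KIF3B at -0.98, KIF3A at -0.62 and KIF5B at -0.52. Of the other members, KIF26A had 2.35, the highest of all members. KIF6 was at 0.94, KIF24 at 0.87 and KIF2A at 0.25, while KIF27 was at -0.60 and KIF25 at -0.46. KIF25 passed the filter only through A4573-R, which favours a negative value, and its difference did not pass in edgeR (-0.20) or DESeq2 (-0.11). It is among the 33 but supports nothing.

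Antisense transcripts of members fall outside the naming rule and had signal. They passed the filter through the groups where they are high, so only levels are given. KIF25-AS1 averaged 1.78 CPM in A4573-R, against 0.566 CPM in A4573 parental. KIF9-AS1 averaged 2.61 CPM in TC-71 parental, against 0.169 CPM in A4573 parental.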

How the results depend on the processing

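Counts of members called in each direction and comparison stayed within 1.5 times their value under all 23 alternatives, except that the difference between lines was not run on only the groups compared, since it needs all 4. Without 1 library, 15 to 18 members were higher and 12 to 13 lower in A4573-R, and 22 to 23 higher and 11 lower in TC-71-R. The difference then gave 20 to 21 higher and 12 to 14 lower, and TC-71 parental 13 to 14 higher and 21 to 22 lower than A4573 parental. All 12 mitotic kinesins rose in TC-71-R under each alternative, and 5 or 6 rose and 5 fell in A4573-R. For the 17 genes given by library, 1520 of 1547 alternative values kept direction and call, 17 lost the call, 9 gained it and 1 reversed. The reversal was KIF1B between the parents, at 0.018 under quantile normalization against -0.16. In TC-71-R KIF5A (0.11), KIF1C (0.04) and KIF16B (0.05) lost their calls on CPM of named genes, and KIFC1 in A4573-R in 14 settings. The cause was not tested. With the replicate block, A4573-R had 16 higher members, KIFC1 being lost (adjusted p = 0.055), and the other counts were the same. Libraries with the same number did not deviate together (r of -0.10 to 0.03), so the numbers were not taken as pairing. Depth limits only members near 1 CPM, such as KIF25 and KIF6.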

Other observations

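The opposing motor, dynein with its activator dynactin, was counted as a further group. Of 19 tested genes, 8 rose, 5 fell and 6 did not pass in A4573-R (median 0.01), and 5 rose, 7 fell and 7 did not pass in TC-71-R (median -0.05), where 72.5% of all tested genes passed in A4573-R and 78.5% in TC-71-R. DYNLT1, a dynein light chain, had 73.5 ± 2.48 CPM in A4573-R against 34.8 ± 1.88 CPM in A4573 parental (1.06), and 58.9 ± 2.96 CPM in TC-71-R against 44.2 ± 2.12 CPM in TC-71 parental (0.41), and it rose in both. DCTN2, a dynactin subunit, rose in A4573-R (0.67) and fell in TC-71-R (-0.14). DYNC1I1, the dynein intermediate chain enriched in neurons, had 0.433 ± 0.0800 CPM in TC-71-R against 2.12 ± 0.246 CPM in TC-71 parental and fell by the largest amount of the group there (-1.12). In A4573-R it had 3.61 ± 0.243 CPM against 3.10 ± 0.251 CPM in A4573 parental (0.17, adjusted p = 0.038). NDEL1 and PAFAH1B1, which regulate dynein, fell in A4573-R, at -0.60 and -0.43.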
